A study of Mus musculus with 6 samples.

Results

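The genes described here encode the machinery by which cells present peptides on major histocompatibility complex (MHC) class I and class II molecules. The set was a list of 10 named genes, *H2-K1*, *H2-D1*, *B2m*, *Tap1*, *Tap2*, *Tapbp* and *Nlrc5* for MHC I and *H2-Aa*, *H2-Ab1* and *Cd74* for MHC II. All 10 were among the 16381 genes with a value, and all 10 passed the filter on low values that left 14419 genes to test. The bulk RNA sequencing compared activated group 2 innate lymphoid cells (aILC2s), lung-resident lymphocytes without an antigen receptor, after culture with melatonin or with its solvent DMSO (vehicle). Both groups came from the lungs of wild type BALB/c mice, described in the study's methods as female and aged 6 to 8 weeks, which received 0.5 µg of IL-33 intranasally per day for 3 days. The cells were sorted as live CD45+, lineage-negative, ST2+ and CD127+, with CD3, CD4, B220, CD11b and CD11c among the lineage markers. They were then cultured for 24 h at 10000 cells per well with 250 µM melatonin or with DMSO, in 3 samples per group.

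MHC I molecules are built from a polymorphic heavy chain and beta-2-microglobulin, and they display peptides from the cytosol on nearly all nucleated cells. Proteasomes cut those peptides, the TAP transporter carries them into the endoplasmic reticulum, tapasin and its partners help to load them, and NLRC5 acts as a transactivator of the MHC I genes. MHC II molecules are pairs of an alpha and a beta chain that are guided by the invariant chain CD74, trimmed free of it by cathepsins and loaded with peptides from endosomes for CD4+ T cells, and their genes depend on the transactivator CIITA. MHC II is best known from dendritic cells, B cells and macrophages, and ILC2s are among the other cells that can carry it.

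The depth was between 17056267 and 20511700 estimated counts per library, and every level given below is a normalized count, an estimated count divided by a size factor per library. All 12 ILC2 markers were listed with a value. With melatonin 2 of them were called higher and 7 lower, beside 24.5% and 24.7% of all genes tested. The changes went from *Rora*, which rose by 0.64 on the log2 scale, to *Thy1*, which fell by 2.88. Of the sort marker genes, *Il1rl1* (ST2) rose by 0.63 and *Il7r* (CD127) fell by 1.06. Transcripts of the Y chromosome, such as *Ddx3y*, were at 0 in melatonin replicates 2 and 3 and between 746 and 1071 in the other 4 libraries, although the methods describe female mice. *Xist*, expressed from the inactive X chromosome, was at 579 and 1091 in melatonin replicates 2 and 3. It was at 0 in melatonin replicate 1 and between 5.81 and 13.6 in vehicle. The sex of the source thus appeared to differ between libraries, and in melatonin replicates 2 and 3 it cannot be told apart from the treatment. A refit on the libraries with Y-linked transcripts set melatonin replicate 1 alone against the 3 vehicle libraries and assumed that it varied like them. The labels also give the melatonin and the vehicle libraries separate stretches of library numbers without saying what these stand for, and whatever goes with them and the treatment cannot be told apart. No label says that the samples came from separate animals or cultures, so a p-value here measures the spread between these samples only. BALB/c mice carry another MHC haplotype than the reference genome to which the reads were aligned, and the part of that difference in the levels was not tested.

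Of the 10 genes, 2 passed the test as higher with melatonin, 4 passed it as lower and 4 did not pass it (limma, Benjamini-Hochberg adjusted p under 0.05 over all genes tested). Across the whole table, 24.5% of the genes tested were called higher and 24.7% lower, so changes of this kind were common in these libraries. In 3 of the 10 genes every melatonin value lay above every vehicle value, against 30.0% of all genes tested, and in 4 every melatonin value lay below, against 30.3%. The median log2 fold change was 0.22 over the 7 MHC I genes and −2.41 over the 3 MHC II genes, beside −0.00 over all genes tested. The MHC I heavy chains were the genes called higher, while the MHC I transactivator and all 3 MHC II genes were called lower.

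**Figure D1:**
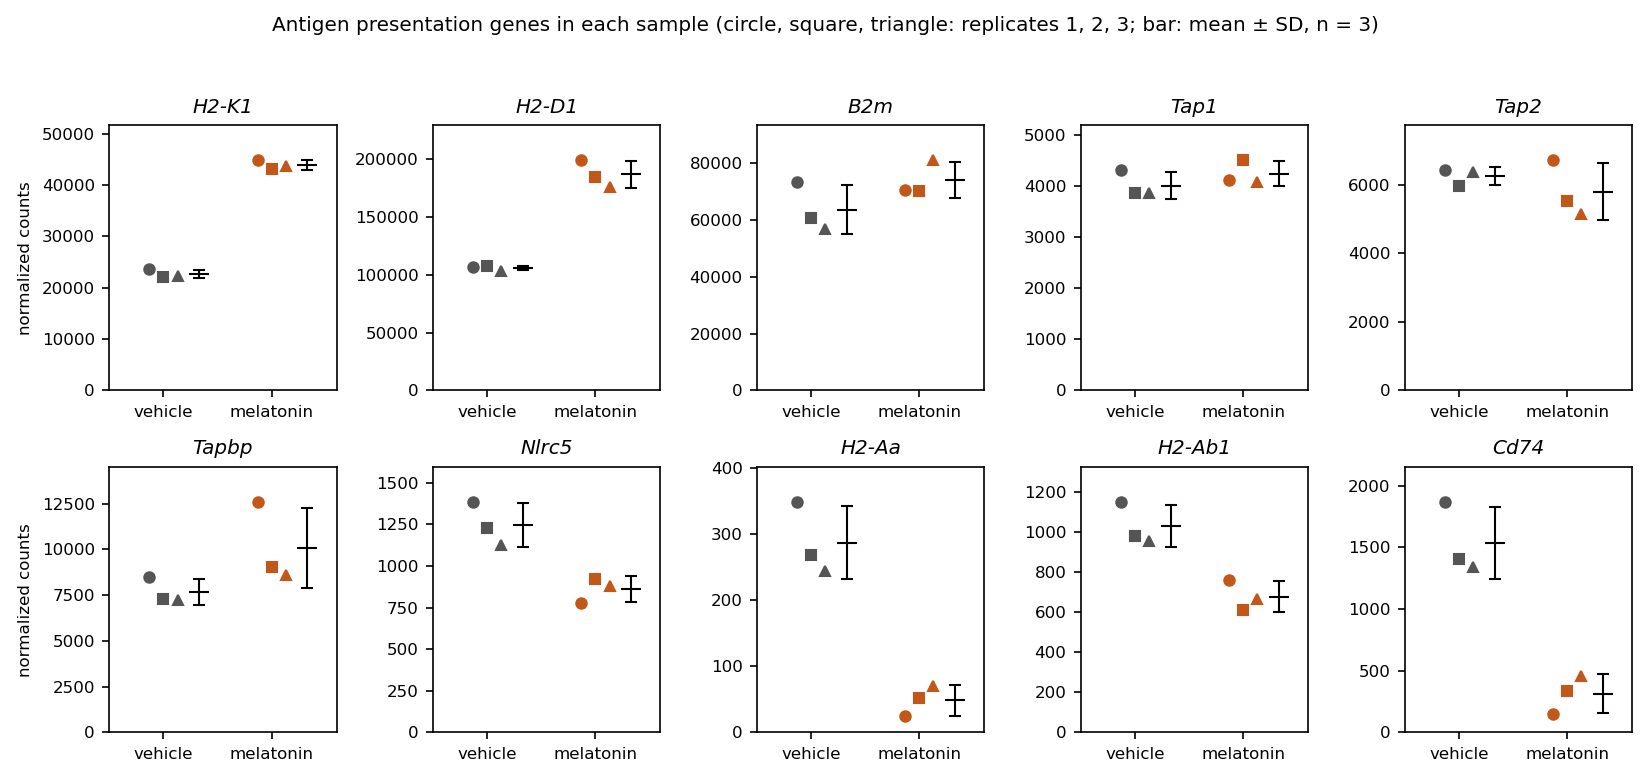
Normalized counts of the 10 genes in each of the 3 vehicle and 3 melatonin samples on linear axes that start at 0, with a bar for the mean ± SD. The groups are separate for *H2-K1*, *H2-D1*, *Tapbp*, *Nlrc5*, *H2-Aa*, *H2-Ab1* and *Cd74*, and they overlap for *B2m*, *Tap1* and *Tap2*.

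The heavy chains *H2-K1* and *H2-D1* are the classical MHC I genes in the list, and their promoters are shown because both genes rose with melatonin. The promoter of *B2m*, which encodes the light chain that both share, is shown as the contrast. Each line holds the 250 bases before the transcription start in RefSeq's annotation of GRCm38.p6, on the strand of the gene. Capitals mark CCAAT (the Y box, bound by NF-Y), TGACG (the core of the X2 box, bound by CREB family factors) and GAAANNGAAA (the core of an interferon response element), each searched on both strands.
H2-K1, chr17:34000334-34000583, minus strand: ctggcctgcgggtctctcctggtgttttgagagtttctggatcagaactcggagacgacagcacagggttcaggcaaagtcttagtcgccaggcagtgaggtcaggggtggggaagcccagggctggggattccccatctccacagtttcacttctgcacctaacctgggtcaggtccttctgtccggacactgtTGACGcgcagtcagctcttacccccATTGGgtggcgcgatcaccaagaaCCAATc
H2-D1, chr17:35262844-35263093, plus strand: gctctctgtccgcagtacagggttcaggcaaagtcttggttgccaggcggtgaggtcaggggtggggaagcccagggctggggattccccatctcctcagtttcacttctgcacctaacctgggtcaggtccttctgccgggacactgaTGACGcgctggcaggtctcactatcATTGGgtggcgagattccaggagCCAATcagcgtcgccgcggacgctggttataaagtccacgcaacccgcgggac
B2m, chr2:122147437-122147686, plus strand: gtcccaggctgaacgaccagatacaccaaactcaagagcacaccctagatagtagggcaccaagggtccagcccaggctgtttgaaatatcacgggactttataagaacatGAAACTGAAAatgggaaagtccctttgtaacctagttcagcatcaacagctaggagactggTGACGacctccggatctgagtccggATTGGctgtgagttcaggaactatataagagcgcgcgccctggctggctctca

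The *H2-K1* and *H2-D1* windows shared a run of 47 identical bases, from −155 to −109 before the *H2-K1* start and from −201 to −155 before the *H2-D1* start. Both carried TGACG followed by a reverse CCAAT and a forward CCAAT, at −55, −30 and −6 in *H2-K1* and at −101, −76 and −53 in *H2-D1*. RefSeq gives *H2-K1* a second start, whose window lies 14 bases further upstream and holds no forward CCAAT. In *B2m* a TGACG began at −78 and a reverse CCAAT at −53, and the match GAAACTGAAA lay from −139 to −130. Among 32851 mouse promoter windows of the same length, CCAAT was found in 33.8%, TGACG in 17.8% and GAAANNGAAA in 2.98%. These matches describe the letters only, and overlapping matches on both strands were each counted. Only exact matches were marked, so a window without a mark can still hold a variant of that element. The windows are those of the reference genome. BALB/c mice carry another MHC haplotype, so the MHC promoters of these cells may differ from the letters shown.

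*H2-K1* (ENSMUSG00000061232, GRCm39 chr17:34214987-34219321, minus strand) was measured at 23618, 22084 and 22343 in vehicle replicates 1, 2 and 3. In melatonin replicates 1, 2 and 3 it reached 44923, 43011 and 43722. The groups were far apart relative to their spread, with means of 22682 ± 821 (SD, n = 3) and 43885 ± 967 (SD, n = 3). The log2 fold change was 0.95 ± 0.08 (SE), with a limma adjusted p of 6.1e-05.

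*H2-D1* (ENSMUSG00000073411, GRCm39 chr17:35481691-35486475, plus strand) was the more abundant heavy chain, at 106620, 107372 and 103480 in vehicle. It rose to 199514, 184390 and 176241 with melatonin, again with no overlap. Its log2 fold change was 0.82 ± 0.10 (SE), with a limma adjusted p of 0.00031. By normalized count *H2-D1* ranked 2 or 3 among all genes in the vehicle libraries and 1 in each melatonin library, and its share of a library went from 0.556% ± 0.007 to 1.01% ± 0.06 (SD, n = 3). Quantile normalization, which forces the highest values of all libraries to be equal, lowered its log2 fold change to 0.34, with a limma adjusted p of 0.0079.

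*B2m* (GRCm39 chr2:121977957-121983594, plus strand) did not pass the test. It stood at 73092, 60550 and 56614 in vehicle and at 70318, 70024 and 81115 with melatonin. Vehicle replicate 1 was above 2 of the 3 melatonin samples, and the log2 fold change was 0.22 ± 0.12 (SE), with a limma adjusted p of 0.15. The light chain therefore showed no called change in the samples in which both heavy chains rose. The ratio of *H2-K1* to *B2m* within a library was 0.361 ± 0.036 in vehicle and 0.597 ± 0.052 with melatonin, and that of *H2-D1* to *B2m* was 1.69 ± 0.20 and 2.55 ± 0.34 (SD, n = 3). Neither ratio overlapped between the groups, and the exact two-sided permutation test gave p = 0.1 for each, the smallest value that 3 samples against 3 allow (0.12 after adjustment over 6 ratios). The ratio of *H2-D1* to *H2-K1* was 4.67 ± 0.18 in vehicle and 4.25 ± 0.21 with melatonin (SD, n = 3, exact p = 0.1, adjusted 0.12), a small shift beside the changes of either gene.

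Near-identical heavy chain genes can exchange reads, since the authors' algorithm divides ambiguous reads among genes. Of all stretches of 50 bases in the annotated transcripts, 11.3% of those of *H2-K1* and 12.6% of those of *H2-D1* occurred in another gene as well, beside 0 for *B2m*. Annotated genes on the opposite strand, not among those with a value, also cover 26.8% of the exon bases of *H2-K1* and 24.2% of those of *H2-D1*. For this reason the heavy chain genes of the lists named H2 were also summed per library, a sum added after the data had been seen. The 14 genes together held 148186 ± 3251 in vehicle and 254056 ± 12698 with melatonin (SD, n = 3), a ratio of 1.71. *H2-K1* and *H2-D1* made up most of it, and the other 12 together gave a ratio of 1.19.

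Of 17 other MHC I and MHC I-like heavy chain genes listed, 15 were measured, with a median log2 fold change of 0.36. Of these, 8 were called higher, 3 lower and 4 neither, beside 24.5% higher and 24.7% lower over all genes tested. The 3 lower calls came to 1 without vehicle replicate 1, under quantile normalization and in the libraries with Y-linked transcripts, and that of *H2-T24* was kept in 1 of the 6 fits without a replicate. The largest rises were those of *H2-Q1*, *H2-Q2* and *H2-K2*, non-classical genes of the same chromosomal region. *H2-Q1* went from 1534 ± 115 to 3081 ± 90 (SD, n = 3), a log2 fold change of 1.01 ± 0.08 (SE, limma adjusted p = 6.1e-05). *H2-Q2* rose by 0.96 and *H2-K2* by 0.96 on the log2 scale (limma adjusted p = 0.00026 and 0.00067). *H2-Q4* and *H2-Q10* were also called higher, at 0.92 and 0.84, as was *Cd1d1*, a lipid-presenting molecule, at 0.74.

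The non-classical genes *H2-T23* and *H2-M3* went the other way. *H2-T23*, the gene of Qa-1, which displays leader peptides of other heavy chains to NK receptors, fell by 0.48 on the log2 scale, from 7037 ± 744 to 5089 ± 873 (SD, n = 3, limma adjusted p = 0.015). *H2-M3*, which binds formylated peptides, fell by 0.47 (limma adjusted p = 0.0035). The call for *H2-T23* was lost in 4 of 18 refits, with a limma adjusted p of 0.061 under quantile normalization, 0.058 without the variance trend, 0.06 without vehicle replicate 1 and 0.12 in the libraries with Y-linked transcripts, where the log2 fold change was −0.24. Between 24.6% and 33.8% of the 50-base stretches of *H2-Q4*, *H2-Q6*, *H2-Q7*, *H2-T10* and *H2-T22* occurred in other genes, so the division of reads among these genes is uncertain. Among all 21 genes of the table with H2-K, H2-D, H2-Q, H2-T or H2-M class I names, a group chosen after their values had been seen, 20 were tested. Of these, 14 were called higher and 3 lower, beside 24.5% and 24.7% of all genes tested.

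The transporter subunits *Tap1* and *Tap2*, which carry peptides into the endoplasmic reticulum, showed no called change. *Tap1* (GRCm39 chr17:34405996-34416199, plus strand) was at 4302, 3850 and 3859 in vehicle and at 4114, 4511 and 4070 with melatonin. *Tap2* (GRCm39 chr17:34422501-34435829, plus strand) was at 6434, 5957 and 6390 in vehicle and at 6737, 5538 and 5141 with melatonin. Both genes overlapped between the groups, with log2 fold changes of 0.08 ± 0.08 and −0.12 ± 0.10 (SE) and limma adjusted p-values of 0.43 and 0.37. In *Tap2*, melatonin replicate 1 held the highest value of all 6 libraries and replicate 3 the lowest. Without that replicate 1 the log2 fold change was −0.23 and was called lower (limma adjusted p = 0.02), and under quantile normalization and in the libraries with Y-linked transcripts its sign turned. Exons of *Tap1* share 743 bases with *Psmb9* on the opposite strand, 12.4% of its exon bases, and reads there cannot be told apart without strand.

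*Tapbp* (GRCm39 chr17:34134873-34148267, plus strand) encodes tapasin, the chaperone that holds empty MHC I molecules at the transporter. It was at 8482, 7293 and 7260 in vehicle and at 12615, 9034 and 8620 with melatonin. Every melatonin sample lay above every vehicle sample, but replicate 1 was far above the other two and the lowest melatonin value was close to the highest vehicle value. The log2 fold change of 0.38 ± 0.14 (SE) missed the threshold, with a limma adjusted p of 0.054. It passed the threshold in 7 of 20 alternatives, and over the 18 refits the log2 fold change was between 0.20 and 0.72. Exons of *Tapbp* share 20.9% of their bases with *Zbtb22* on the same strand, which averaged 632 in vehicle and 661 with melatonin.

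*Nlrc5* (GRCm39 chr8:95160984-95253900, plus strand), the MHC I transactivator, moved against the heavy chains. It was at 1386, 1226 and 1126 in vehicle and at 776, 924 and 882 with melatonin. The lowest vehicle value was above the highest melatonin value, and the means were 1246 ± 131 and 861 ± 76 (SD, n = 3). The log2 fold change was −0.53 ± 0.11 (SE), with a limma adjusted p of 0.0039, and it was called lower in all 18 refits. Melatonin replicate 1, with the highest *H2-K1* and *H2-D1*, had the lowest *Nlrc5*.

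Of 12 further genes that supply or load MHC I peptides, 1 was called higher, 7 lower and 4 neither, with a median log2 fold change of −0.29. The shares over all genes tested were 24.5% higher and 24.7% lower. The inducible proteasome subunit *Psmb8* fell the most, from 21335, 19579 and 18694 in vehicle to 11164, 10742 and 10896 with melatonin. Its groups did not come near each other, and the log2 fold change was −0.86 ± 0.08 (SE, limma adjusted p = 9.8e-05). The subunit *Psmb10* fell by 0.57 and the proteasome activator *Psme1* by 0.62 on the log2 scale (limma adjusted p = 0.0083 and 0.00059), and *Psmb10* was not called in the libraries with Y-linked transcripts (limma adjusted p = 0.088). *Psmb9*, the third inducible subunit, had a log2 fold change of −0.18 that did not pass the test (limma adjusted p = 0.09, and 0.044 with upper quartile scaling), and its gene overlaps *Tap1* as described above. *Pdia3*, the disulfide isomerase ERp57 of the loading complex, rose by 0.35 (limma adjusted p = 0.0063), while the chaperone calnexin (*Canx*) fell by 0.44 (limma adjusted p = 0.0059).

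**Figure D2:**
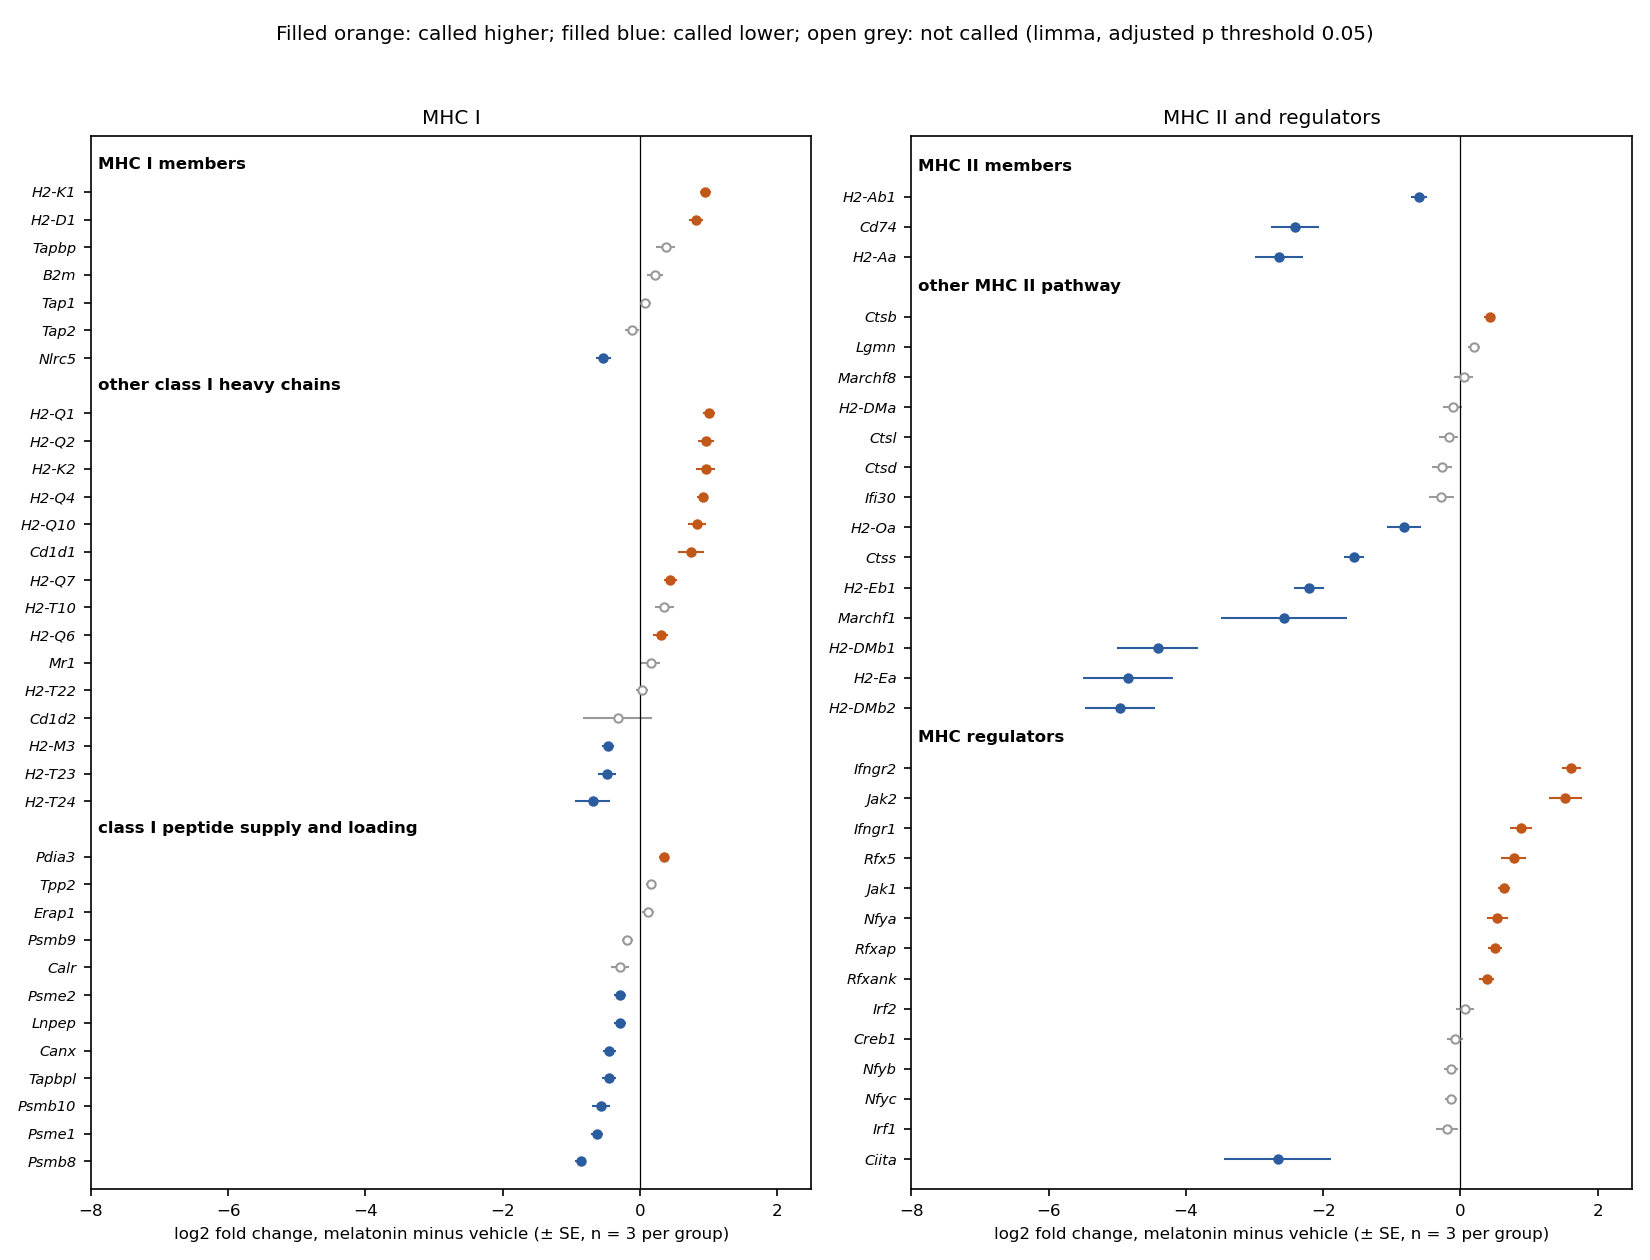
Log2 fold change (melatonin minus vehicle, ± SE, 3 samples per group) of each tested gene of the MHC I lists on the left and of the MHC II and regulator lists on the right, with the sign of each call in colour. The heavy chains lie mostly above 0, from 1.01 for *H2-Q1* down to −0.69 for *H2-T24*, while the called MHC II genes other than *Ctsb* lie below 0.

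For MHC II, the promoter of *H2-Aa*, which encodes the alpha chain of the I-A molecule, is shown with the same marks, in the 250 bases before its RefSeq start in GRCm38.p6.
H2-Aa, chr17:34287824-34288073, minus strand: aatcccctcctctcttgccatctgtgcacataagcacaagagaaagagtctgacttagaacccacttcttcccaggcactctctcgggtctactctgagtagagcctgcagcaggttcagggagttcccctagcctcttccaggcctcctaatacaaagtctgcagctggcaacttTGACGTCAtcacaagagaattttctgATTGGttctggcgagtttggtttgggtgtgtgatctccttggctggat
It held TGACG at −74, which overlaps a reverse match at −71, and a reverse CCAAT at −48, an order also found in *H2-K1*, *H2-D1* and *B2m*. Of the 6 genes of the list with a window in the table, all held CCAAT and 5, all but *Tapbp*, held TGACG. No window was given for *Tap2*, *Nlrc5*, *H2-Ab1* and the invariant chain gene.

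*H2-Aa* (GRCm39 chr17:34493404-34506798, minus strand) was at 349, 268 and 243 in vehicle. With melatonin it was at 24.3, 51.3 and 70.4. Each treated sample was far below all 3 vehicle samples. The mean fell from 287 ± 55 to 48.7 ± 23.2 (SD, n = 3), a 5.89-fold decrease, with a log2 fold change of −2.64 ± 0.35 (SE, limma adjusted p = 0.00048).

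*Cd74* (GRCm39 chr18:60936899-60945731, plus strand), the invariant chain, was at 1871, 1405 and 1339 in vehicle and at 149, 334 and 461 with melatonin. The groups were again separate, and melatonin replicate 1 was the lowest, as in *H2-Aa*. The mean fell from 1538 ± 290 to 315 ± 157 (SD, n = 3), a 4.88-fold decrease. The log2 fold change was −2.41 ± 0.35 (SE), with a limma adjusted p of 0.00073. In the libraries with Y-linked transcripts the log2 fold changes were −3.49 for *H2-Aa* and −3.34 for *Cd74*. Without that replicate they were −2.22 and −1.95, and both genes were called lower in either setting.

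*H2-Ab1* (GRCm39 chr17:34476663-34488393, plus strand), the beta chain that pairs with the *H2-Aa* product, fell much less. It was at 1153, 982 and 957 in vehicle and at 761, 610 and 664 with melatonin. The groups did not overlap, and here melatonin replicate 1 was the highest of the treated samples, the reverse of its place in *H2-Aa* and *Cd74*. The mean fell from 1031 ± 107 to 678 ± 77 (SD, n = 3), a 1.52-fold decrease with a log2 fold change of −0.60 ± 0.12 (SE, limma adjusted p = 0.0029). The ratio of *H2-Aa* to *H2-Ab1* was 0.303, 0.273 and 0.254 in vehicle and 0.0319, 0.0842 and 0.106 with melatonin. The ratio of *Cd74* to *H2-Ab1* was 1.62, 1.43 and 1.40 in vehicle and 0.196, 0.548 and 0.694 with melatonin. Neither ratio overlapped between groups, and each gave the smallest p that the exact two-sided permutation test allows, 0.1 (0.12 after adjustment over 6 ratios).

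Of 16 other MHC II pathway genes, 15 were listed and 14 tested, with a median log2 fold change of −0.55. Of the 14, 1 was called higher, 7 lower and 6 neither, beside 24.5% higher and 24.7% lower over all genes tested. The chains of the I-E molecule were among those that fell. The beta chain *H2-Eb1* was at 433, 293 and 291 in vehicle and at 58.8, 68.8 and 89.5 with melatonin, a log2 fold change of −2.21 ± 0.22 (SE, limma adjusted p = 0.00014). The alpha chain *H2-Ea* was at 138, 123 and 125 in vehicle and at 1.87, 1.09 and 14.1 with melatonin, a log2 fold change of −4.85 ± 0.65 (SE, limma adjusted p = 0.00053). At these low values the size of the *H2-Ea* change depended on the setting, at −3.24 with a pseudocount of 10 and between −5.72 without melatonin replicate 3 and −4.30 without melatonin replicate 2, and it was called lower in each. All 4 chains of I-A and I-E were thus called lower, with *H2-Ab1* the least changed of them in log2 fold change. Exons of *H2-Aa* and *H2-Eb1* overlap on opposite strands over 118 bases, 2.75% of those of *H2-Aa*.

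The genes that load MHC II peptides were divided. *H2-DMb1* and *H2-DMb2*, the beta chains of the peptide exchange factor DM, were low in vehicle, between 15.0 and 34.6 and between 25.3 and 39.2, and at 0 in all 3 melatonin libraries. Set against a floor of 3 counts per library, their means were at least 7.20-fold and 10.1-fold lower with melatonin, and 22.7% and 22.1% of their 50-base stretches occurred in other genes. Their partner *H2-DMa* did not pass the test, at 457 ± 55 in vehicle and 423 ± 60 with melatonin (SD, n = 3, limma adjusted p = 0.53). Cathepsin S (*Ctss*), which trims the invariant chain, fell from 900 ± 139 to 305 ± 42 (SD, n = 3), a log2 fold change of −1.56 ± 0.15 (SE, limma adjusted p = 0.00011). Cathepsin B (*Ctsb*), a protease of many endosomal substrates, rose by 0.42 on the log2 scale (limma adjusted p = 0.0038). *H2-Oa*, a chain of the DM inhibitor DO, fell by 0.82 (limma adjusted p = 0.025), a call that 5 of the 6 fits without a replicate lost, with log2 fold changes between −1.13 and −0.66 over the 6. In the libraries with Y-linked transcripts the log2 fold change of *H2-Oa* was −0.21 and was not called (limma adjusted p = 0.33).

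**Figure D3:**
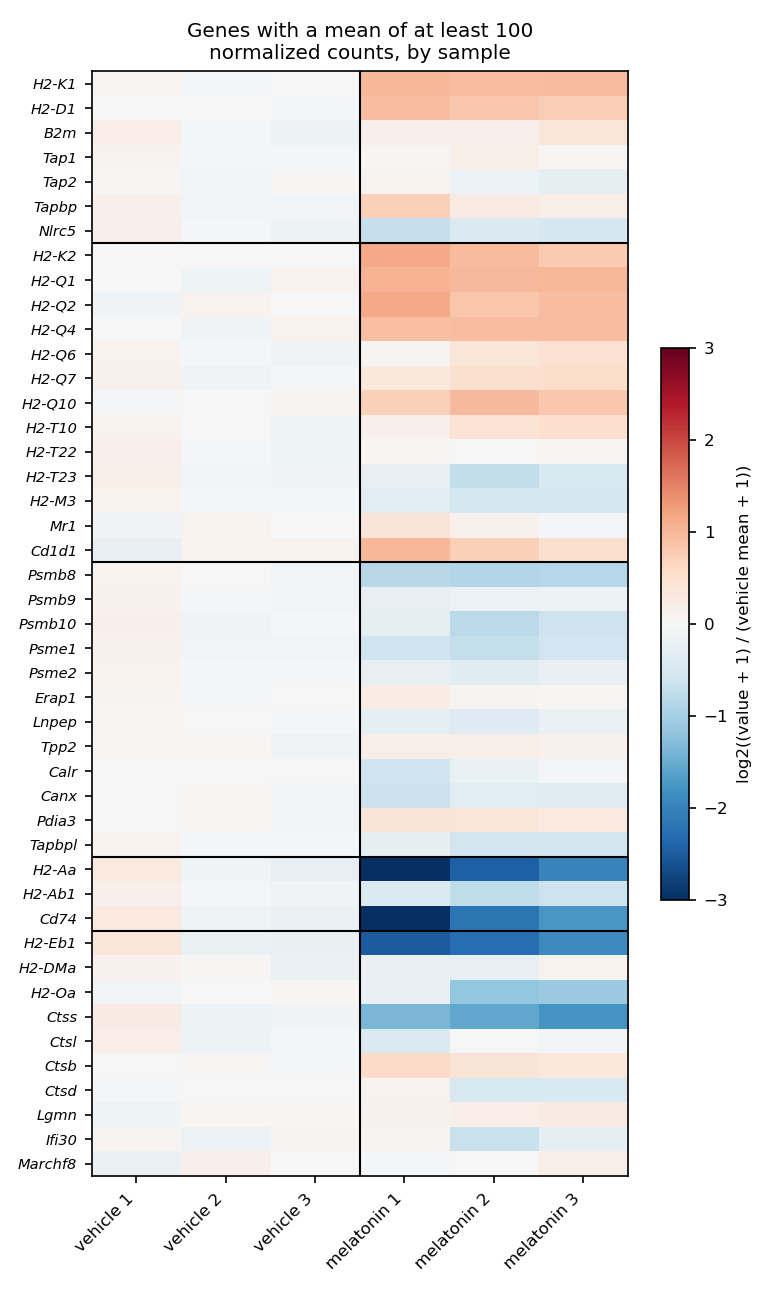
The tested genes of the MHC I and MHC II lists whose mean reached 100 normalized counts, each as log2 of its value plus 1 over the vehicle mean plus 1, in each sample (rows in list order, separated by lines, colours limited to 3 in either direction). The MHC I heavy chains are above the vehicle mean in all 3 melatonin samples for *H2-K1*, *H2-D1*, *H2-Q1* and *H2-Q4*, and *H2-Aa*, *Cd74* and *H2-Eb1* are far below it.

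Among 14 regulators of MHC genes, 8 were called higher, 1 lower and 5 neither, with a median log2 fold change of 0.44. Over all genes tested, 24.5% were called higher and 24.7% lower. The transactivator *Ciita* was the gene called lower, at 31.7, 48.7 and 28.3 in vehicle and at 21.5, 1.09 and 3.02 with melatonin. Melatonin replicate 1 was the highest of the treated samples in *Ciita*. The log2 fold change was −2.66 ± 0.78 (SE) with a limma adjusted p of 0.02, and the call rested on single libraries, since the limma adjusted p was 0.06 without melatonin replicate 2, 0.057 without melatonin replicate 3 and 0.075 without vehicle replicate 2. In the libraries with Y-linked transcripts the log2 fold change of *Ciita* was −0.69 and was not called (limma adjusted p = 0.21).

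The receptor chains *Ifngr1* and *Ifngr2* and the kinase *Jak2* of interferon gamma signalling, which induces both *Nlrc5* and *Ciita* in many cells, were the regulators with the largest rises. *Ifngr2* was at 483, 558 and 516 in vehicle and at 1976, 1490 and 1367 with melatonin, a log2 fold change of 1.62 ± 0.14 (SE, limma adjusted p = 7.4e-05). *Jak2* rose by 1.53 and *Ifngr1* by 0.88 on the log2 scale (limma adjusted p = 0.0012 and 0.0024), and the kinase *Jak1* rose by 0.64 (limma adjusted p = 0.00064). *Irf1*, an interferon-induced factor that acts on MHC I promoters, had a log2 fold change of −0.19 and did not pass the test (limma adjusted p = 0.35), but it was called lower without melatonin replicate 1, at −0.39 (limma adjusted p = 0.011), and with sample weights, at −0.33 (limma adjusted p = 0.044). All 3 subunits of the RFX complex, which binds MHC promoters beside NF-Y and CREB, were called higher, *Rfx5* by 0.78, *Rfxap* by 0.50 and *Rfxank* by 0.38. The call of *Rfxank* was lost without vehicle replicate 1 and without vehicle replicate 3, with a limma adjusted p of up to 0.055.

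Levels of different genes were compared per kilobase of exon. In vehicle the order was *H2-D1* at 35369 ± 690 (SD, n = 3) normalized counts per kilobase, *B2m* at 30113 ± 4086, *H2-K1* at 7121 ± 258, *Tapbp* at 1741 ± 158, *Tap2* at 1314 ± 55, *Tap1* at 666 ± 43, *Cd74* at 612 ± 115, *H2-Ab1* at 401 ± 42, *Nlrc5* at 147 ± 15 and *H2-Aa* at 66.8 ± 12.9. Neighbours in this order overlapped for *H2-D1* and *B2m* and for *Tap1* and *Cd74*, and were separate otherwise. With melatonin *H2-D1* reached 62405 ± 3947, above every *B2m* value, which averaged 35052 ± 3001 (SD, n = 3). *Cd74* at 125 ± 62 came below *H2-Ab1* at 264 ± 30 and overlapped *Nlrc5* at 101 ± 9, and the rest of the order was as in vehicle. Per kilobase, the least abundant MHC II chain of the list, *H2-Aa*, was at 11.3 ± 5.4 with melatonin.

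**Figure D4:**
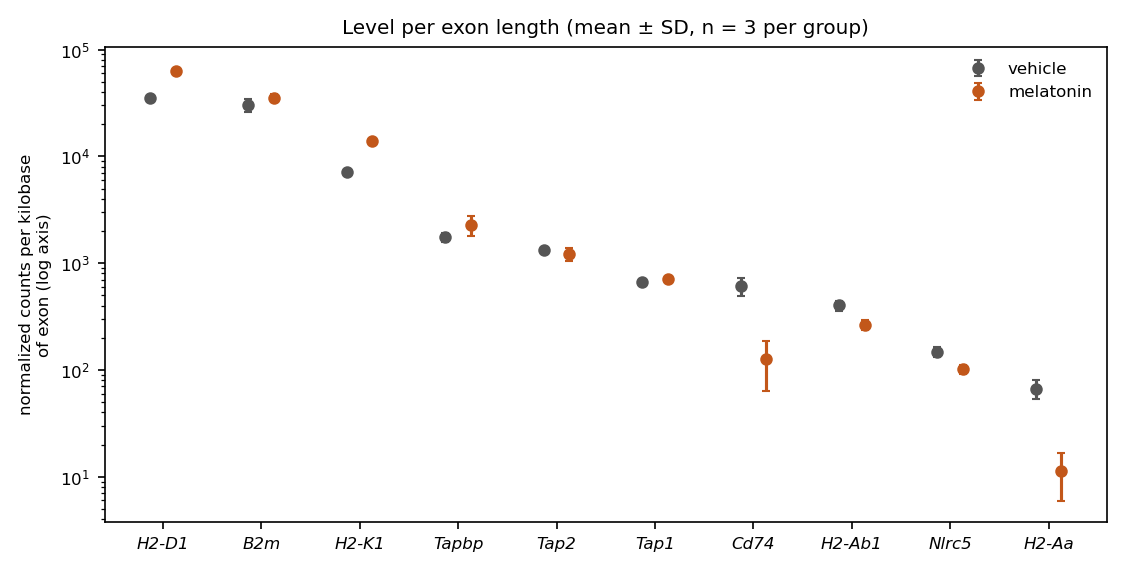
Level of each gene per kilobase of exon in vehicle and melatonin (mean ± SD, 3 samples per group) on a log axis, ordered by the vehicle level. *H2-D1*, *B2m* and *H2-K1* lie at 7121 or above in both groups and the MHC II genes at 612 or below.

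Since MHC II genes are abundant in other cells of the lung, markers of those cells were read in the same libraries. In bulk RNA, fewer cells of a type and less RNA per cell cannot be told apart. The sum of *H2-Aa*, *H2-Ab1* and *Cd74* was 2856 ± 452 in vehicle and 1042 ± 137 with melatonin (SD, n = 3), a 2.74-fold decrease. The ILC2 markers summed to between 197261 and 210885 in vehicle and to between 138671 and 157921 with melatonin. Most of this fall lay in *Il5*, which averaged 83072 in vehicle and 49950 with melatonin, and in *Il2ra*, at 51596 and 31066. *Gata3* and *Ptprc* did not pass the test (limma adjusted p = 0.67 and 0.79), and *Il1rl1* and *Rora* were called higher.

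Of 10 macrophage markers 8 were listed, with sums between 1304 and 1484 in vehicle and between 369 and 795 with melatonin. They were mostly *Lyz2* and *Cd68*, while *C1qa* and *C1qb* were at 15.9 or less in vehicle and at 0 in all melatonin libraries. *Csf1r* was at 127, 50.5 and 61.6 in vehicle and at 0, 21.2 and 49.3 with melatonin, and it did not pass the test (limma adjusted p = 0.08). *Mertk* went the other way, from a mean of 1.75 in vehicle to 7.32 with melatonin, and was not called either (limma adjusted p = 0.07). Of 7 dendritic cell markers 4 were listed, with sums between 766 and 815 and between 638 and 807, most of it *Xcr1*. *Itgax*, the gene of CD11c, was at 132, 113 and 106 in vehicle and at 1.87, 33.9 and 45.2 with melatonin. Its log2 fold change of −2.82 was called lower (limma adjusted p = 0.027). *Xcr1* averaged 652 and 660 and *Zbtb46* 18.5 and 9.63 in vehicle and melatonin, and neither was called (limma adjusted p = 0.99 and 0.13). *Flt3* was at 6.30 or less in every library.

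Of 5 B cell markers 3 were listed, with sums between 296 and 328 and between 131 and 164, nearly all *Cd79b*, and *Ms4a1* and *Pax5* were not listed. All 8 lung epithelial markers were listed, with sums between 964 and 2412 in vehicle and between 1061 and 1261 with melatonin. Of the 7 tested, 1 was called higher (*Epcam*, by 0.72 on the log2 scale) and 5 lower, beside 24.5% and 24.7% of all genes tested. The sum was mostly *Epcam* in 5 of the 6 libraries, while *Sftpc*, a surfactant gene of alveolar type II cells, was at 155, 122 and 389 in vehicle and at 6.54, 5.46 and 3.02 with melatonin. Vehicle replicate 3 held the most *Sftpc* of all samples. Without it the log2 fold changes were −2.75 for *H2-Aa*, −2.51 for *Cd74* and −0.65 for *H2-Ab1*. The part of these marker genes in the MHC II result was not tested.

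Of 6 granulocyte and mast cell markers 3 were listed, summing to between 285 and 347 in vehicle and between 9.34 and 55.3 with melatonin, mostly *Ccr3* in vehicle and with more *Cpa3* than *Ccr3* in melatonin replicate 3. Of 6 T cell markers 4 were listed, at 4646 to 5050 and 1736 to 2576, without *Cd4* or *Cd8a*, and of 4 endothelial markers *Pecam1* was listed, at 1001 to 1066 and 310 to 416.

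**Figure D5:**
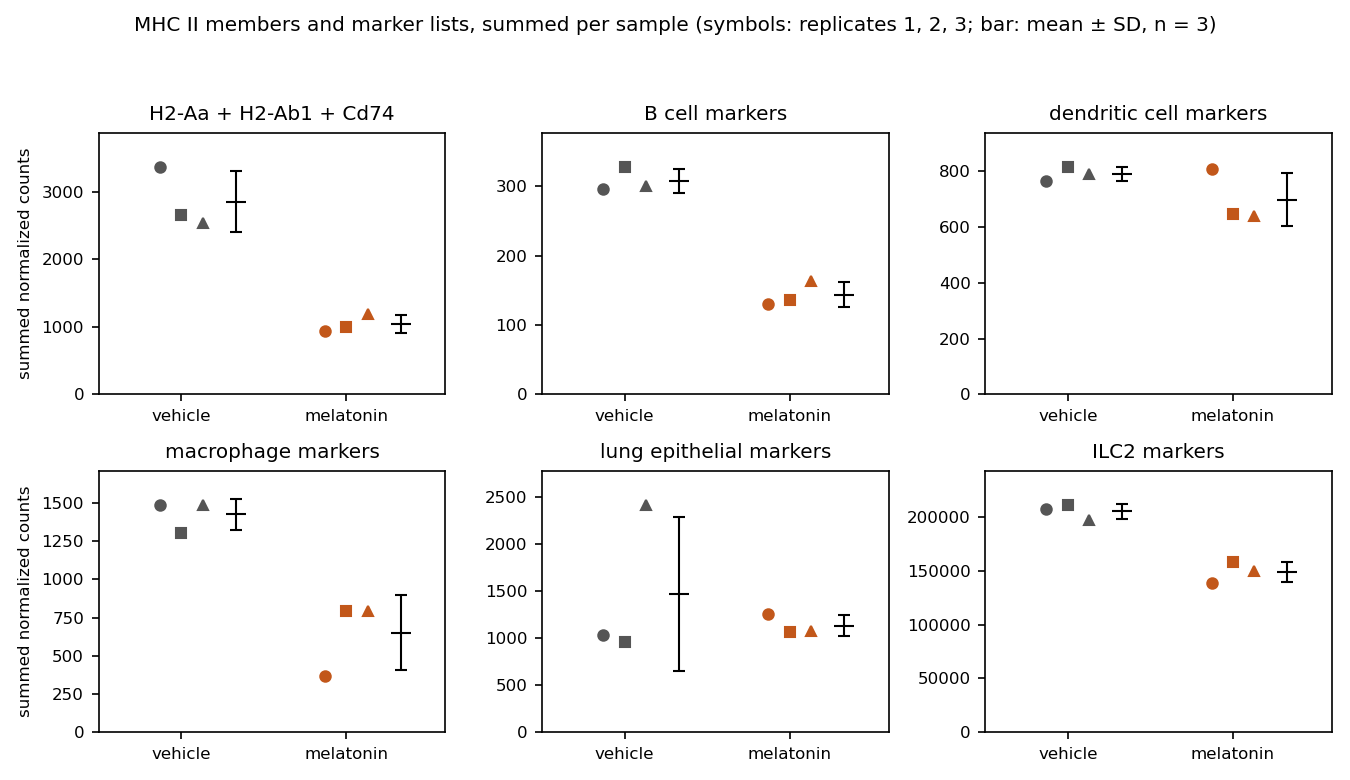
Summed normalized counts of *H2-Aa*, *H2-Ab1* and *Cd74* and of 5 marker lists in each sample, on axes that start at 0 (bar: mean ± SD, n = 3). The MHC II sum fell from 2856 to 1042, and the macrophage, B cell and ILC2 marker sums were also lower in every melatonin sample. The dendritic and epithelial sums overlapped between the groups. The dendritic sum was mostly *Xcr1*, while *Itgax* was called lower. The epithelial sum was mostly *Epcam* except in vehicle replicate 3, while 5 of 7 tested epithelial markers were called lower.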

How the data were processed

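Bulk RNA sequencing of 6 aILC2 samples gave 1 deposited table. Per the methods, trimming was done by the authors in Partek Flow, alignment to mm39 by STAR, and the division of reads among Gencode genes by Partek's E/M algorithm, before genes of few counts were dropped and DESeq2's median ratio scaling was applied. The deposited values are a signal in normalized counts, of which 65.1% to 67.5% per library were whole multiples of the value of 1 read within 0.01 reads, so whole reads were not recovered and a count model was not used. Instead of the study's DESeq2 test, limma 3.58.1 in R 4.3.3 (eBayes with trend) was run on log2(value + 1). The fold changes of low genes therefore depend on the value added, and they can differ in either direction from the ratio of the group means. A gene was tested if any library reached 10, with Benjamini-Hochberg adjustment and a threshold of 0.05. Strand was not stated. Depth came from the value of 1 read.

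Gene names came from GENCODE M39, which named 16334 of 16381 identifiers, and promoters from RefSeq's GRCm38.p6 tables, which matched 6 of 10 genes. The 10 genes and all lists were chosen with earlier results of these data known, and genes withheld for evaluation were taken out of the lists and are not reported here. Besides the 10, the genes named are the 3 largest rises and falls per list that were called, did not overlap and had a mean of 100 or more, and *H2-Ea*, *H2-Eb1*, *Ciita*, *Psmb8*, *Psmb9*, *Psmb10* and *Irf1*. Others (*H2-Q4*, *H2-Q10*, *Cd1d1*, *Canx*, *H2-DMa*, *H2-DMb1*, *H2-DMb2*, *H2-T24*, *Jak1* and the RFX genes) were chosen after their values were seen. *H2-Q6*, *H2-Q7*, *H2-T10* and *H2-T22* are named only for the stretches they share with other genes. On simulated data the fit recovered 200 of 200 changed genes and called 11 of 13664 unchanged ones. The changed genes there had a mean of 100 or more and log2 fold changes of at least 1 in either direction. All genes shared the same dispersion, and most were unchanged. The simulation therefore cannot tell how well smaller changes, or those of low or more variable genes, are found. The alternatives changed the pseudocount, the filter, the scaling, the variance model, the block, the libraries and the threshold. Python 3.11.15, numpy 2.4.6, pandas 2.3.3, scipy 1.17.1 and matplotlib 3.10.9 were used.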

Additional observations from a re-analysis of the deposited data

How the results depend on the processing

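The calls of *H2-Aa* and *Cd74* held in all 20 alternatives, and those of *H2-K1*, *H2-D1*, *Nlrc5* and *H2-Ab1* in all but the requirement of a log2 fold change of at least 1. With that requirement 0 of the 10 genes were called higher and 2 lower, and the counts over all genes were 866 and 1392. At an adjusted p under 0.01 the counts over all genes were 2188 higher and 2267 lower. Deviations from the group mean had correlations of −0.05, 0.01 and −0.05 between same-numbered replicates, and between −0.06 and 0.11 for other numbers. With 3 samples per group these values cannot decide whether the samples were paired. The fit with the replicate block called 3160 genes higher and 3278 lower, 3 of the 10 genes higher (with *Tapbp*) and 4 lower. *Tap2* turned to 0.0095 under quantile normalization and to 0.11 in the libraries with Y-linked transcripts, and *Irf1* to 0.20 in those libraries, none of them called. With 1 library left out, between 2747 and 3454 genes were called higher and between 2708 and 3619 lower.

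For the lists, other heavy chains called lower came to 1 under quantile normalization, in the libraries with Y-linked transcripts and at an adjusted p under 0.01, to 0 with a log2 fold change of at least 1, and to between 1 and 3 with 1 library left out. Other heavy chains called higher came to 1 with the fold requirement. Peptide supply and loading genes called higher came to 2 with equal totals, quantile normalization or voom, and to 0 with the fold requirement, which also left 0 called lower. Other MHC II genes called higher came to 2 with voom and 0 with the fold requirement, and those called lower to 3 with a mean of at least 100. Regulators called higher came to 2 with the fold requirement. Regulators called lower came to 0 with a mean of at least 100, without the trend and at an adjusted p under 0.01, to 2 with sample weights and in the libraries with Y-linked transcripts, and to between 0 and 2 with 1 library left out. Over the longest transcript in place of all exons, *H2-K1* came to 12103 and *H2-Ab1* to 705 normalized counts per kilobase in vehicle, and the order of the 10 genes was unchanged in both groups. The cause of these changes was not tested. In melatonin replicate 2 the value of *Ciita* and of *H2-Ea*, 1.09 normalized counts, corresponds to 1 read.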
